A study of Mus musculus with 4 samples.

Results

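The genes described here encode 8 small GTPases of the Rab family that act in regulated exocytosis: Rab3a, Rab3b, Rab3c, Rab3d, Rab26, Rab27a, Rab27b and Rab37. They were taken by symbol from the 31053 genes of the deposited matrices, and all 8 were found. Earlier results of these data were known when the genes were picked, among them a strong difference of Rab3b between the genotypes. Rab3b is therefore only described between genotypes, with no test. Their UMIs, the unique molecular identifiers that count captured RNA molecules, were summed over the authors' kept cells by library and by the deposited cell type name. The 8 genes held 31140 of 75975541 UMIs, or 409.9 CPM, where CPM is the UMIs of a gene per 1000000 UMIs of all genes.

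A Rab protein switches between a GDP-bound form held in the cytosol and a GTP-bound form on a membrane, where it recruits effector proteins. Rab3 and Rab27 proteins sit on secretory granules and synaptic vesicles, and their effectors tether the granule to the plasma membrane and prepare it for SNARE-driven fusion. In the crypt, goblet cells store mucins, Paneth cells store antimicrobial proteins and enteroendocrine cells store hormones or serotonin in such granules, while tuft cells are chemosensory cells.

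The libraries came from sorted TOM+ cells of mouse duodenal crypts, 2 per genotype. WT mice were Atoh1CreER-T2;R26RTom, in which a red fluorescent reporter is switched on by a tamoxifen-dependent Cre recombinase driven from Atoh1, a gene of secretory precursors. The APC-KO libraries carry floxed Apc alleles (Apcfl/fl) as well, and Apc encodes a negative regulator of Wnt signalling; their label gives the driver as Atoh1Cre, whereas the series description gives Atoh1CreER-T2 for both. All mice received 2 tamoxifen doses of 1 mg/mL, 24 h apart, with harvest 12 h later. The age, sex and number of animals were not given. P-values between genotypes therefore measure the spread between these libraries, which may be technical. P-values between types come from a fit with a term for each library. They measure the spread left in its 39 sums of both genotypes, not that between libraries or animals.

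The libraries held 54230249 to 61032126 UMIs. The authors kept 4814 and 3821 cells of WT replicates 1 and 2, and 356 and 6243 cells of APC-KO replicates 1 and 2, with median depths of 4841.5, 5354, 8370 and 3973 UMIs per cell. Pairs of libraries shared 1 to 8 barcodes. APC-KO replicate 1 stood apart in its cell number: it had at least 20 cells in EC (45), GOBLET (28) and GOBLET-PRE (184) alone among the 12 types, so APC-KO values of other types rest on replicate 2. Marker lists were summed for some of the named types; GP, SEC-PRO and the precursor types had no list of their own. Goblet markers summed to 383600 to 451300 CPM in GOBLET cells, Paneth markers to 276400 to 400100 CPM in PANETH cells, enterochromaffin markers to 61560 to 82410 CPM in EC cells and tuft markers to 2858 to 4541 CPM in TUFT cells. The types were named by the authors from the same libraries, so a difference between types describes named classes of cells. GP is printed as deposited.

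RefSeq promoter entries (build GRCm38.p6) matched 5 of the 8 genes, Rab3a, Rab3b, Rab3c, Rab3d and Rab27a; Rab26, Rab27b and Rab37 had none in the table used. The 250 bases before each annotated start were searched on both strands for the E-boxes CATATG and CAGCTG, a class of site read by bHLH factors such as ATOH1, and for the TCF/LEF cores CTTTGAA and CTTTGAT, the class read by Wnt effectors. These motifs do not overlap each other. Of 32851 promoters in the table, 3.46% held CATATG, 13.0% CAGCTG, 4.46% CTTTGAA and 3.21% CTTTGAT. The windows below are those of the genes with the sharpest differences between cell types or genotypes, 5′ to 3′, with matches in capitals: Rab3b (chr4:108878820-108879062, plus strand, bases of the first exon left off), Rab3c (chr13:110280207-110280456, minus strand, also within the GENCODE span of the gene) and the second RefSeq start of Rab27a, within the gene (chr9:73063898-73064147, plus strand).
Rab3b: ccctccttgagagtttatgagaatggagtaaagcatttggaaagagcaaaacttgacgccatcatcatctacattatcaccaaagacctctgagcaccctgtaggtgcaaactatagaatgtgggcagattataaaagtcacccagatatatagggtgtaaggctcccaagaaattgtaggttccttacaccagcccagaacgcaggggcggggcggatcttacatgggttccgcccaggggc
Rab3c: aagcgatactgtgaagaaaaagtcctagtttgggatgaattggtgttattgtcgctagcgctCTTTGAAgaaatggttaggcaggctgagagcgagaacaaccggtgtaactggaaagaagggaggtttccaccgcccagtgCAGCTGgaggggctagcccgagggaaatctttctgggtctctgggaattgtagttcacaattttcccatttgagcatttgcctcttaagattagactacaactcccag
Rab27a: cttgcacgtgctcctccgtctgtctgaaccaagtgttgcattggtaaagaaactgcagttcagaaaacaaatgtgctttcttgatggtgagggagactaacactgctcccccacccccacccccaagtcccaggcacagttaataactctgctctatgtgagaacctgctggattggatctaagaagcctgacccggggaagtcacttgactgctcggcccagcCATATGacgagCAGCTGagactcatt
The Rab3b window held none of the 4 motifs. The Rab3c window held CTTTGAA starting 188 bases and CAGCTG starting 108 bases before its RefSeq start, which lies inside the GENCODE span of Rab3c. The second Rab27a window held CATATG at 26 bases and CAGCTG at 15 bases before that start, which lies within the gene. The first Rab27a window (chr9:73044560-73044809, plus strand) held none of the 4 motifs. Among the other entries, CAGCTG was found in the second Rab3a window, 185 bases before that start. A match is a match of letters, with no measure of binding.

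In the GENCODE vM21 annotation of GRCm38, Rab3c spans chr13:110054187-110280996 on the minus strand and Rab3b spans chr4:108879063-108943324 on the plus strand. Rab3d lies at chr9:21907491-21918192 (minus), Rab27a at chr9:73044854-73097629 (plus), Rab27b at chr18:69979131-70141605 (minus), Rab3a at chr8:70754679-70758677 (plus), Rab26 at chr17:24527241-24534210 (minus) and Rab37 at chr11:115091431-115162236 (plus). Rab26 overlaps Traf7 on its own strand, and Rab27a overlaps the gene model Gm27186 on its own strand, so reads in the overlap could be split by the counting. Rab3a overlaps Mpv17l2, Rab37 overlaps Cd300lf and Rab3b overlaps 2 gene models on the other strand. How the authors' counting used strand was not given in the sources used here.

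**Figure D1:**
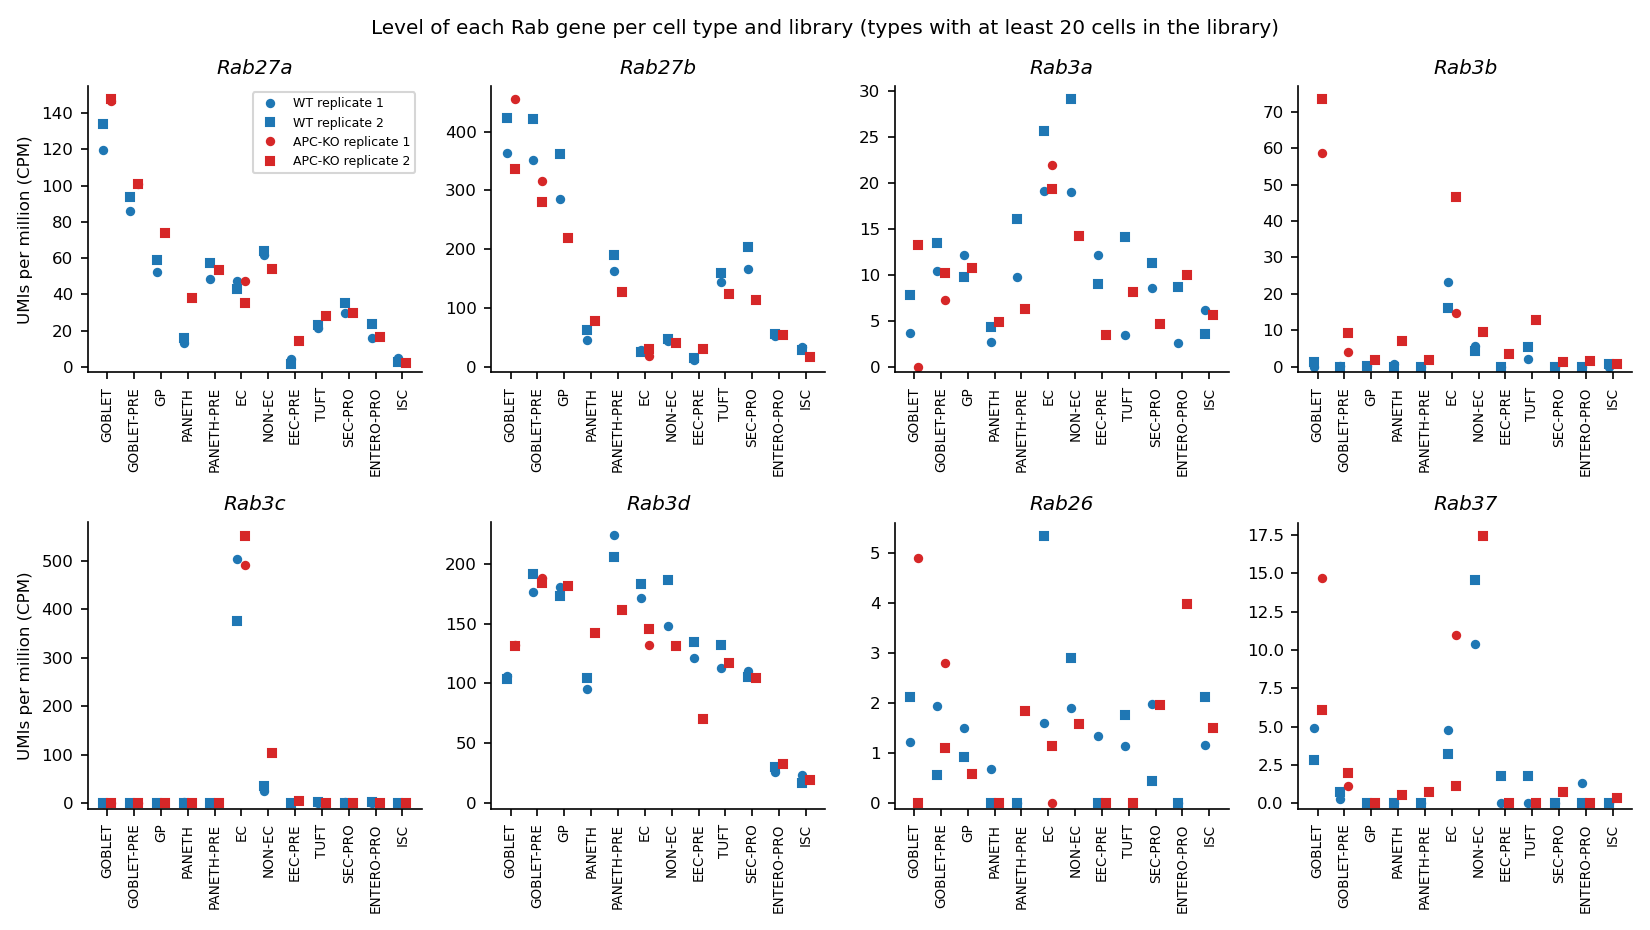
Level of each gene (y axis, CPM) in the 12 cell types (x axis) for each library with at least 20 cells of the type; blue is WT, red is APC-KO, circles are replicate 1 and squares replicate 2. Rab3c is high in EC, the highest Rab27a and Rab27b points lie in GOBLET, Rab3d is spread over the secretory types, and Rab3b is high in GOBLET of APC-KO.

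Rab27b and Rab27a, whose products dock granules at the plasma membrane, were the genes of the goblet lineage. Rab27b in WT reached 364 and 424 CPM in GOBLET, 352 and 421 CPM in GOBLET-PRE and 285 and 362 CPM in GP. GOBLET overlapped GOBLET-PRE and GOBLET-PRE overlapped GP, while both GOBLET libraries lay above both GP libraries. SEC-PRO (166 and 204 CPM), PANETH-PRE (162 and 190 CPM) and TUFT (144 and 159 CPM) came next, all below GP. PANETH had 45.4 and 63.3 CPM, NON-EC 44.5 and 46.5 CPM, EC 27.9 and 24.6 CPM, and EEC-PRE 10.8 and 14.4 CPM. The place of PANETH hung on the scaling. Divided by edgeR's TMM factors, described below, its mean CPM was 149, above TUFT at 113. Stem-like ISC cells had 34.4 and 28.4 CPM, so GOBLET was 12.3-fold above ISC (95% interval 10.4 to 14.7, counting error alone).

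Rab27a followed a related order. Its WT level was 120 and 134 CPM in GOBLET, 86 and 93.7 CPM in GOBLET-PRE, 61.6 and 64 CPM in NON-EC and 47.1 and 42.8 CPM in EC. It fell to 21.6 and 23 CPM in TUFT, 12.9 and 15.9 CPM in PANETH, and 4.04 and 1.8 CPM in EEC-PRE. The libraries of GOBLET, GOBLET-PRE and NON-EC did not overlap between neighbours in this order of CPM. Divided by TMM factors, the mean CPM of PANETH was 39.6, above TUFT at 16.6. Across the 12 types, the mean WT levels of Rab27a and Rab27b had Pearson r = 0.75, and r = 0.819 in APC-KO replicate 2; the types share libraries, so these are descriptions. The genes parted in the endocrine branch: in CPM, EC stood above TUFT and PANETH for Rab27a and below both for Rab27b. The fitted Rab27a difference of EC from PANETH was -0.23 ± 0.26 with TMM factors (adjusted p = 0.52) and 1.65 with UMI totals alone, so its direction hung on the scaling.

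In edgeR's quasi-likelihood test of the WT difference, from a fit to the sums of both genotypes, both Rab27 genes were lower in every other mature type than in GOBLET. The fitted log2 difference against GOBLET was -2.40 ± 0.20 (SE) for Rab27a and -2.12 ± 0.14 for Rab27b in PANETH, with adjusted p of 4.7e-18 and 6.1e-24. In EC it was -2.63 ± 0.17 for Rab27a and -5.02 ± 0.17 for Rab27b, and in NON-EC it was -2.26 ± 0.17 and -4.34 ± 0.16. TUFT gave -3.64 ± 0.22 for Rab27a and -2.50 ± 0.14 for Rab27b. The largest adjusted p among these EC, NON-EC and TUFT values was 8.8e-21, and all 8 calls held under every alternative tried. From GOBLET-PRE to GOBLET, Rab27a rose by 1.08 ± 0.13 (adjusted p = 5.3e-11) and by 0.50 when sums were scaled by UMI totals alone; without WT replicate 2 its adjusted p was 0.077. Rab27b rose by 0.60 ± 0.11 (adjusted p = 3.1e-06), but the change was 0.03 with UMI totals alone, and its adjusted p was 0.347 and 0.515 without WT replicates 1 and 2.

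Rab3c, a Rab3 paralog best known from neurons and endocrine cells, marked EC. WT EC cells held 630 and 351 Rab3c UMIs, or 503 and 375 CPM, and APC-KO EC cells held 134 and 484 UMIs, or 490 and 551 CPM. NON-EC cells of WT had 24.6 and 34.9 CPM, so EC was 15.6-fold higher (95% interval 11.8 to 21.2). In the remaining 10 types no WT library passed 3.62 CPM. EEC-PRE, the endocrine precursors, held 1 UMI in 330 WT cells, and GOBLET held 2 UMIs in 433 WT cells. EC exceeded GOBLET with a ratio of 498.5 (137.6 to 4122) and EEC-PRE with a ratio of 582.1 (104.2 to 23010), intervals that are wide because of those 1 and 2 UMIs. Of EC cells, 54.5% and 51.8% in WT and 71.1% and 58.2% in APC-KO had at least 1 Rab3c UMI at median depths of 3066, 3374, 6426 and 2413. Of GOBLET cells, 0% and 0.37% had one in WT at median depths of 4904 and 5252, and 0% and 0% in APC-KO, which with 163, 270, 28 and 256 cells gives upper exact 95% bounds of 2.24%, 2.05%, 12.3% and 1.43%. At 2000 UMIs per cell the EC shares were 46.7%, 41.9%, 51.1% and 48.2%, from 353, 258, 45 and 249 cells.

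Rab3c passed the test in EC against EEC-PRE (log2 difference 8.92 ± 0.42, adjusted p = 8.6e-33), EC against PANETH (6.65 ± 0.35, 3.8e-30) and NON-EC against EC (-4.06 ± 0.20, 2.9e-31), with each call kept under every alternative. It also passed in NON-EC against GOBLET (3.60 ± 0.77, adjusted p = 4.6e-05). Fitted values against GOBLET, PANETH and EEC-PRE rest on 1 to 4 UMIs in those types and are no bounds. In WT, Rab3b, a close paralog, was also highest in EC, at 23.1 and 16 CPM from 29 and 15 UMIs, above NON-EC at 5.69 and 4.36 CPM. No Rab3b UMI was seen in WT EEC-PRE, ENTERO-PRO, PANETH-PRE or SEC-PRO cells. Rab3b was called higher in EC than in EEC-PRE (adjusted p = 9.3e-06, and 0.058 without WT replicate 1), with 0 UMIs in EEC-PRE. It was called lower in NON-EC than in EC by 2.04 ± 0.55 on the log2 scale (adjusted p = 0.0058), a call lost without WT replicate 1 (0.627) or 2 (0.131).

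From EEC-PRE to EC, 3 of the 7 members tested were called, all higher, where 29.5% of all genes tested were called, 16% higher and 13.5% lower. The third, beside Rab3b and Rab3c, was Rab27a, at 3.71 ± 0.47 on the log2 scale (adjusted p = 3.4e-10; 14.7-fold in pooled CPM, 95% interval 5.56 to 55.0). Rab26 had too few UMIs to enter this fit of types. Values that missed the threshold were 2.18 ± 1.44 for Rab37 (adjusted p = 0.27), 0.97 for Rab27b (0.052), 0.89 for Rab3a and 0.35 for Rab3d, of which Rab27b and Rab3d passed with UMI totals alone (0.023 and 0.014); without APC-KO replicate 1 the count of members called was also 5. The median over the 7 was 2.18, beside 0.07 over all 11945 genes tested. That median is the Rab37 value, which rests on 9 UMIs in EC and 1 in EEC-PRE. Genes could enter the fit through any type where they were high, EC among them. The count and the median are therefore no result about the members as a set.

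Rab3d, the Rab3 of exocrine granules, was the broadest member. WT levels ran from 224 and 206 CPM in PANETH-PRE, through 176 and 192 CPM in GOBLET-PRE, 172 and 183 CPM in EC, 181 and 173 CPM in GP and 148 and 186 CPM in NON-EC, to 105 ± 1.41 CPM (SD, n = 2) in GOBLET and 95.5 and 104.4 CPM in PANETH. Neighbours from GOBLET-PRE to NON-EC overlapped, as did GOBLET and PANETH. This order is that of CPM and hung on the scaling. Divided by TMM factors, the mean CPM was highest in PANETH, at 275, above PANETH-PRE at 231 and GOBLET-PRE at 203. GOBLET followed at 171, above EC at 131 and NON-EC at 116. The floor was in ENTERO-PRO (26.3 and 30.4 CPM) and ISC (23.3 and 17 CPM), and PANETH-PRE stood 10.1-fold above ISC (7.95 to 12.8). GOBLET and PANETH cells had a lower Rab3d CPM than their precursors, with ratios of 0.569 (0.496 to 0.651) and 0.465 (0.393 to 0.552), while the fitted change was -0.23 ± 0.13 (adjusted p = 0.22) for GOBLET against GOBLET-PRE and 0.23 ± 0.15 (0.51) for PANETH against PANETH-PRE. With UMI totals alone those changes were -0.81 and -1.11, both called, so the second turned sign.

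Scaling moved such values in most comparisons. The TMM factors, which scale sums so that most genes match, averaged 0.364 in PANETH and 0.613 in GOBLET of WT, against 1.35 in EC and 1.44 in NON-EC. With UMI totals alone in their place, the median log2 change of all genes tested moved from 0.32 to 1.47 for EC against GOBLET, 0.31 to 1.56 for NON-EC against GOBLET, 0.18 to 1.31 for TUFT against GOBLET and 0.06 to -0.50 for PANETH against GOBLET. It moved from 0.12 to 1.99 for EC against PANETH, -0.14 to -0.72 for GOBLET against GOBLET-PRE, 0.07 to -1.21 for PANETH against PANETH-PRE and 0.07 to 0.20 for EC against EEC-PRE, and by under 0.1 for the other comparisons of types. The share of calls that were higher moved in the same order from 57.8% to 88.7%, 57.6% to 89.5%, 53.3% to 87%, 53.1% to 19.6%, 53.3% to 96.6%, 46% to 8.84%, 50% to 1.22% and 54.2% to 64.8%, and from 45.9% to 57.8% for NON-EC against EC. Rab3d turned direction with it: -0.39 and 0.76 for EC against GOBLET, -0.60 and 0.66 for NON-EC against GOBLET, -0.93 and 0.22 for TUFT against GOBLET, 0.67 and -0.06 for PANETH against GOBLET, and -1.06 and 0.82 for EC against PANETH, with TMM factors and with UMI totals alone. Set against the median of all genes, Rab3d was lower than that median in EC, NON-EC and TUFT against GOBLET and higher in PANETH against GOBLET under both ways of scaling. The differences of Rab27a and Rab27b from GOBLET kept their direction under both.

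**Figure D2:**
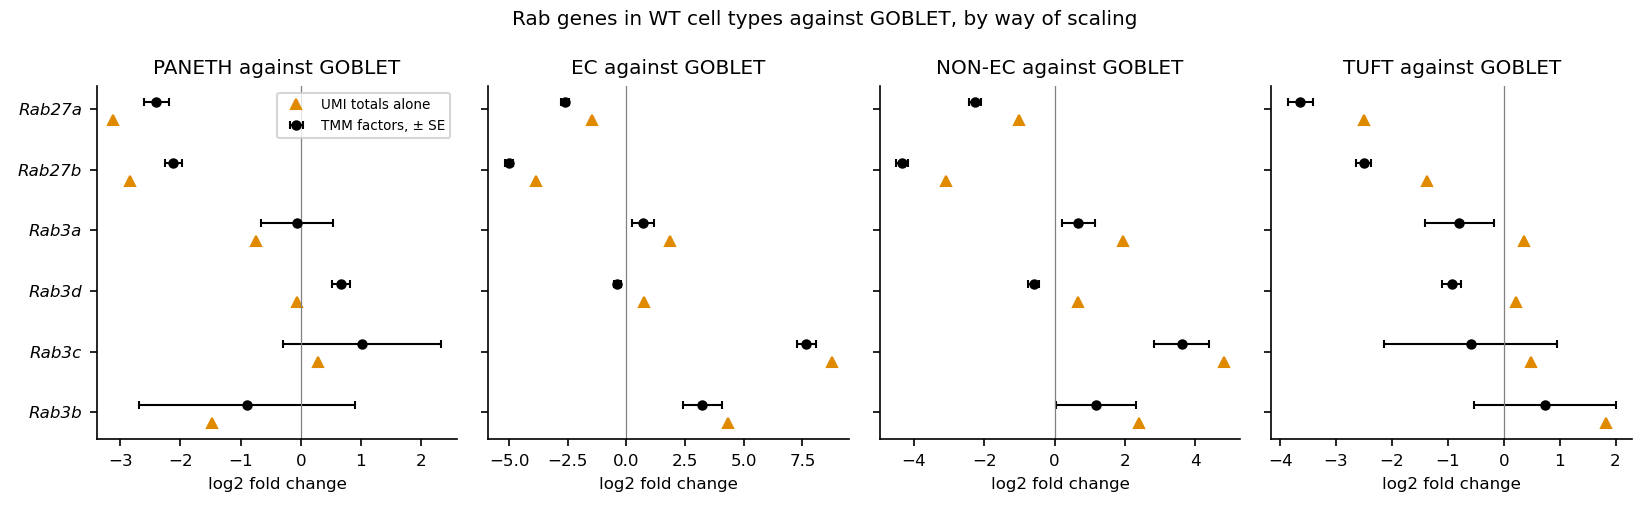
Log2 fold change of 6 genes (rows) in PANETH, EC, NON-EC and TUFT against GOBLET in WT (x axis), with black points for TMM factors ± SE and orange triangles for UMI totals alone. Rab27a and Rab27b lie left of 0 in each panel under both, while Rab3d changes side in all 4.

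The members called in the other comparisons of WT types stood beside high backgrounds. In EC against GOBLET, 51.1% of all genes were called, 29.6% higher and 21.6% lower; of 7 members, Rab3b and Rab3c were higher and Rab27a, Rab27b and Rab3d lower, of which Rab3d turned with UMI totals alone and Rab3b had an adjusted p of 0.15 without WT replicate 1. In NON-EC against GOBLET (51% called, 29.3% higher, 21.6% lower), Rab3c was higher and Rab27a, Rab27b and Rab3d lower, Rab3d turning again. In PANETH against GOBLET (34.7% called, 18.4% higher, 16.3% lower), Rab3d was higher, reversed with UMI totals alone, and Rab27a, Rab27b and Rab37 lower. In TUFT against GOBLET (45.2% called, 24.1% higher, 21.1% lower), 4 members were lower, and 2 of these, Rab27a and Rab27b, remained with UMI totals alone or without either WT library. Rab3d had adjusted p-values of 0.092 and 0.053 there without WT replicates 1 and 2.

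In EC against PANETH, 38.5% of genes were called, 20.5% higher and 18% lower. Rab3b and Rab3c were higher and Rab27b and Rab3d lower; Rab3d turned with UMI totals alone, and Rab3b had an adjusted p of 0.097 without WT replicate 2. In TUFT against EC (35.8% called, 16.2% higher, 19.5% lower), Rab27b was higher, by 2.52 ± 0.21, and 5 members were lower, with Rab3c at -8.26 ± 0.37. Of the other 4, Rab27a, Rab3a, Rab3b and Rab3d, none kept its call without WT replicate 1, with adjusted p of 0.440, 0.599, 0.441 and 0.647. In GOBLET against GOBLET-PRE (24.4% called, 11.2% higher, 13.2% lower), Rab27a, Rab27b and Rab37 were higher. In NON-EC against EC (9.86% called, 4.53% higher, 5.33% lower), Rab3b and Rab3c were lower. In PANETH against PANETH-PRE (5.61% called, 2.8% higher, 2.8% lower), edgeR called 0 of 7 members; Rab27b alone had an unadjusted p below 0.05 (adjusted p = 0.33), and 4 were called lower with UMI totals alone.

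Rab3a, the main Rab3 of brain synapses, was low throughout. It peaked in NON-EC at 18.9 and 29.1 CPM and in EC at 19.2 and 25.6 CPM, and ran from 2.63 to 16.0 CPM in the WT libraries of the other types. With TMM factors Rab3a was called in TUFT against EC alone, at -1.49 ± 0.47 (adjusted p = 0.0087, and 0.599 without WT replicate 1). With UMI totals alone it was also called higher in EC against GOBLET (1.86), NON-EC against GOBLET (1.94) and EC against PANETH (2.61), and lower in GOBLET against GOBLET-PRE (-0.96) and PANETH against PANETH-PRE (-1.79). Rab37, known from mast cell and islet granules, was seen in 48 WT UMIs. Of these, 21 lay in NON-EC (10.4 and 14.5 CPM), 9 in EC and 8 in GOBLET, and none in PANETH, PANETH-PRE, GP, ISC or SEC-PRO. Its calls, such as 3.25 ± 0.94 for GOBLET against GOBLET-PRE (adjusted p = 0.0059), rest on 8 and 7 UMIs and were lost without either WT library (0.416 and 0.220). Rab26, a Rab of exocrine granule maturation, had 59 WT UMIs in all, and no WT library of any type passed 5.34 CPM.

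Rab3b was the member with the greatest contrast between genotypes, in GOBLET cells, and this contrast was among the reasons for choosing the genes. WT GOBLET cells held 0 and 2 Rab3b UMIs, and APC-KO GOBLET cells held 12 and 72, or 58.8 and 73.4 CPM. Both APC-KO libraries were far above both WT libraries, with a pooled ratio of 78.8 (95% interval 21.1 to 661.1, resting on 2 WT UMIs). A Rab3b UMI was seen in 25% and 21.5% of APC-KO GOBLET cells at median depths of 6906 and 3624, against 0% and 0.741% in WT at 4904 and 5252. In ISC cells, a type with no granules, the share was 0.321% in APC-KO replicate 2 at a median depth of 4515. At 2000 UMIs per cell, the APC-KO GOBLET shares were 14.8% and 15.3% from 27 and 255 cells, and no WT GOBLET cell had one. Of the 284 APC-KO GOBLET cells, 62 had a Rab3b UMI, 45 of them exactly 1. The median depth of these 62 cells was 3940.5 UMIs, against 3609.5 in the GOBLET cells without one. Of the 62, 55 also had a Rab27a or Rab27b UMI. The same share among cells without Rab3b was not counted, so the 55 do not show that the genes go together.

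The Rab3b of these goblet cells did not come with Rab3c, the EC gene: none of the 62 cells had a Rab3c UMI, and GOBLET held 0 Rab3c UMIs in both APC-KO libraries. Enterochromaffin markers summed to 58.8 and 45.8 CPM in APC-KO GOBLET against 67.8 and 177.7 CPM in WT GOBLET, and other endocrine markers to 122.4 and 165.1 against 198.5 and 174.8 CPM. Paneth markers summed to 2160 and 5953 CPM in APC-KO GOBLET against 3522 and 4736 CPM in WT, and goblet markers to 383600 and 402400 against 413900 and 451300 CPM. Immune markers were higher in APC-KO GOBLET, at 249.7 and 133.5 CPM against 80.1 and 91.3 CPM, with Cd3e and Cd79a at 0 UMIs in all 4, and their part in the Rab3b difference was not tested. In the other types of APC-KO, Rab3b levels were below those of GOBLET. GOBLET-PRE went from 0.15 and 0 CPM to 3.93 and 9.28 CPM (1 and 0 against 7 and 42 UMIs), and barcodes of 1 to 50 UMIs, which hold free RNA, gave 1.81 and 0 CPM for WT against 2.67 and 9.16 CPM for APC-KO. In APC-KO replicate 2, PANETH had 7.05 CPM and TUFT 12.8 CPM, while SEC-PRO, ISC and PANETH-PRE had 1.22, 0.835 and 1.84 CPM. The part of free RNA in these levels was not tested. The EC libraries overlapped between genotypes, at 23.1 and 16 CPM for WT against 14.6 and 46.7 CPM for APC-KO, and APC-KO replicate 2 was the high one. In NON-EC both APC-KO libraries, at 28.6 and 9.51 CPM from 2 and 6 UMIs, lay above WT, and replicate 1 had 13 NON-EC cells. Summed over the endocrine lineage (EC, NON-EC and EEC-PRE), the WT libraries held Rab3b at 11.5 and 8.26 CPM, both below the APC-KO libraries at 13.0 and 23.5 CPM, with a pooled ratio of 2.13 (1.44 to 3.17). The order of types by Rab3b thus differed: EC led in both WT libraries and GOBLET led in both APC-KO libraries.

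**Figure D3:**
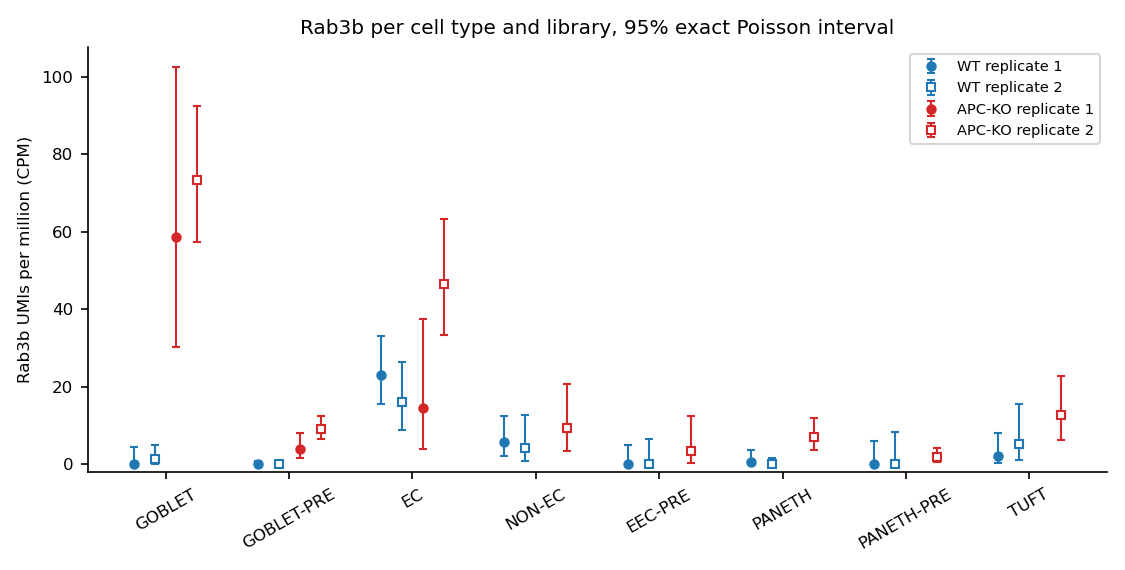
Rab3b level (y axis, CPM) by cell type and library, with 95% exact Poisson intervals of the count; types with under 20 cells in a library are left out. GOBLET of APC-KO, at 58.8 and 73.4 CPM, stands above GOBLET of WT at 0 and 1.42 CPM, while EC overlaps between genotypes.

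For the other members, none passed the test between genotypes in 3 lineage sums (GOBLET with GOBLET-PRE, PANETH with PANETH-PRE, and EC with NON-EC and EEC-PRE). In the goblet lineage 0 of 6 members tested were called, beside 0.0191% of all genes (2 of 10445). In the Paneth lineage it was 0 of 4, beside 0.663%, and in the endocrine lineage 0 of 6, beside 0%, where 913 of 10533 genes had an unadjusted p below 0.05. DESeq2 called 36, 35 and 20 genes in the 3 lineages. Fitted log2 changes ranged from -0.23 to 1.55, from -0.61 to 0.24 and from -0.36 to 0.62 over the members, beside medians of 0.003, 0.005 and 0.010 over all genes. In simulated sums of the same size, 85.7% to 97.5% of genes changed by 2 on the log2 scale were called. Those genes were drawn above a floor of UMIs, and all genes shared the same spread. The rate therefore does not carry over to members below that floor. In the goblet lineage these were Rab37 (15 WT and 20 APC-KO UMIs) and Rab26 (21 and 11). Smaller changes are less sure for all members.

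Rab3c was the endocrine member nearest to the threshold. In the endocrine lineage the WT libraries, at 215 and 172 CPM, lay below the APC-KO libraries, at 292 and 266 CPM. The fitted change was 0.62 ± 0.20 (edgeR adjusted p = 0.398). Leaving out APC-KO replicate 1 or 2 gave adjusted p-values of 0.030 in both cases, in fits that hold 1 APC-KO library and take the spread from the 2 WT libraries. Without WT replicate 1 or 2 they were 0.890 and 1.0. Within EC the libraries overlapped (503 and 375 against 490 and 551 CPM); NON-EC of APC-KO replicate 2 had 105 CPM from 66 UMIs against 24.6 and 34.9 CPM in WT, and NON-EC of replicate 1 had 13 cells and no Rab3c UMI. EC made up 387 of 892 and 270 of 588 cells of the lineage in WT and 45 of 73 and 311 of 725 in APC-KO, and the part of this in the change was not tested.

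Rab27b had a lower CPM in both APC-KO libraries in 7 of the 12 types and a higher one in none. The types share the same 4 libraries, and the share of all genes with such a pattern was not counted. In 6 of these 7, APC-KO replicate 1 held 5 to 13 cells, so GOBLET-PRE is the only one of them with at least 20 cells in each library. In GOBLET-PRE it stood at 352 and 421 CPM for WT against 316 and 280 CPM for APC-KO, a ratio of 0.749 (0.710 to 0.790), and in the goblet lineage the fitted change was -0.23 ± 0.18 (adjusted p = 0.73). In GOBLET itself the libraries overlapped, with 364 and 424 against 455 and 337 CPM. Rab27a went the other way in the goblet lineage, from 89.6 and 100 CPM to 106 and 109 CPM (0.27 ± 0.14, edgeR adjusted p = 0.63). Its CPM did not overlap in GOBLET or in GOBLET-PRE. For GOBLET this hung on the scaling: TMM factors averaged 0.613 in WT and 0.764 in APC-KO. Dividing the mean GOBLET CPM of Rab27a by these factors puts WT above APC-KO. In PANETH, Rab27a reached 22.1 and 37.9 CPM in APC-KO, above 12.9 and 15.9 CPM in WT, the former APC-KO value from 16 cells and 4 UMIs. Goblet markers summed to 30840 and 76980 CPM in these APC-KO PANETH cells against 30170 and 18870 CPM in WT, and Paneth markers to 320200 and 276400 against 400100 and 386500 CPM; their part in the Rab27a difference was not tested. In PANETH-PRE, Rab27a overlapped, at 48.7 and 57.2 CPM for WT against 56.0 and 53.3 CPM for APC-KO. PANETH-PRE, the type with more Rab27a and Rab27b than PANETH, made up 122 of 228 and 98 of 298 Paneth lineage cells in WT and 11 of 27 and 602 of 876 in APC-KO, and the part of this in the lineage changes was not tested. For Rab27a the Paneth lineage change was 0.24 ± 0.22 (adjusted p = 0.68) with TMM factors, and 0.91 (0.096) with UMI totals alone, where the median of all genes was 0.68. Rab3d overlapped in the Paneth lineage, at 133 and 122 CPM for WT against 93.7 and 154 CPM for APC-KO, with a fitted change of -0.58 ± 0.23 (adjusted p = 0.26) that turned to 0.02 with UMI totals alone. Rab27b in the same sums was -0.33 ± 0.22 and turned to 0.29. With UMI totals alone, 93.5% of 572 calls in the Paneth lineage were higher, against 36.8% of 57 with TMM factors. Rab37 in the goblet lineage had 6 and 9 UMIs in WT and 5 and 15 in APC-KO, a change of 1.55 ± 0.48 (edgeR adjusted p = 0.58).

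**Figure D4:**
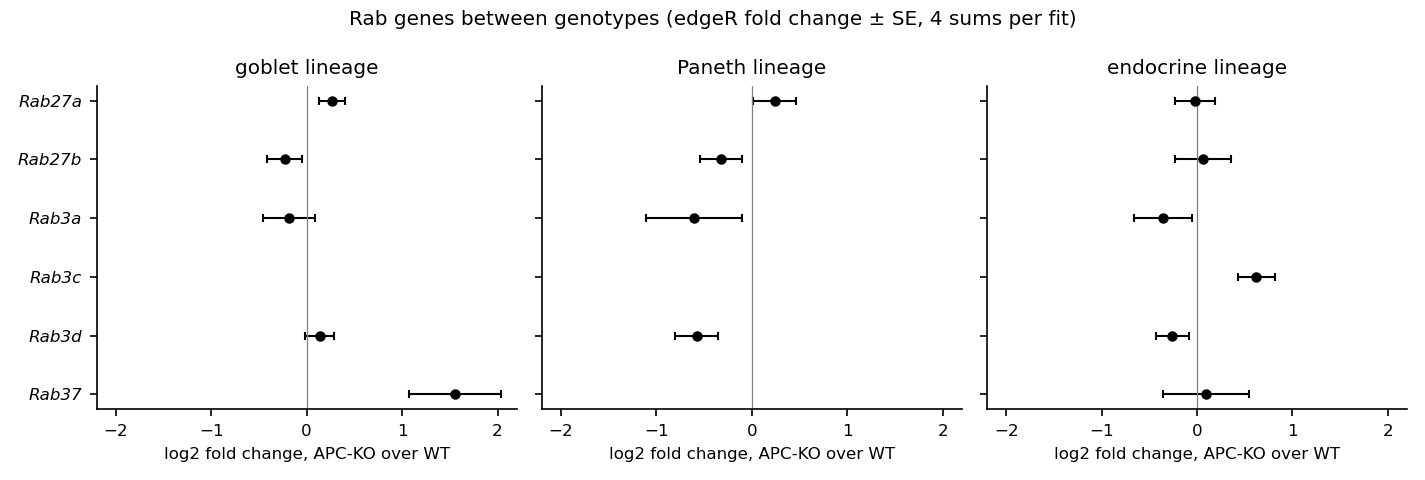
Fitted log2 fold change of APC-KO over WT (x axis, ± SE) for 6 genes in the goblet, Paneth and endocrine lineage sums; genes with too few UMIs for a fit have no point, and Rab26 and Rab3b are not drawn. Rab37 in the goblet lineage, at 1.55, and Rab3c in the endocrine lineage, at 0.62, lie farthest right, and no point passed the adjusted threshold.

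Effectors of Rab3 and Rab27 were called both higher and lower between EC and GOBLET. Of 16 listed effectors 11 were tested; in EC against GOBLET 3 were called higher and 7 lower, where 51.1% of all genes were called (median -2.44, beside 0.32 over all genes), and 9 of the 10 calls kept sign and call under every scaling. The 3 were Rims2 (154 ± 17 CPM in EC, 3.19 ± 4.50 in GOBLET, SD, n = 2), Rph3al (169 ± 14 and 2.39 ± 1.63) and Unc13a (33.3 ± 4.2 and 0.35 ± 0.50). Rims2 and Rph3al encode Rab3-binding proteins of vesicle docking, and Unc13a a priming factor. The falls were led by Sytl2, which encodes a Rab27 effector that docks granules (23.5 ± 3.0 CPM in EC, 424 ± 24 in GOBLET; -5.29 ± 0.18, adjusted p = 1.9e-44), Mlph, which links Rab27 to a myosin (16.4 ± 5.0 and 144 ± 6), and Sytl4 (3.06 ± 1.31 and 23.9 ± 4.2). In NON-EC against GOBLET 4 rose and 6 fell, with the same 3 leading each direction, where 51% of all genes were called. Exph5, another Rab27 effector, was at 88.8 ± 8.1 CPM in TUFT against 8.56 ± 0.10 in GOBLET (2.24 ± 0.31) and 17.1 ± 1.6 in EC (2.41 ± 0.26), while Sytl2 was at 6.89 ± 4.74 CPM in TUFT (-6.91 ± 0.24 against GOBLET). In PANETH against GOBLET, where 34.7% of all genes were called, 1 effector was called higher, Rph3al, and 5 lower. Among the 5 was Sytl2 (54.7 ± 9.4 CPM, -2.19 ± 0.14).

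Several genes of the fusion machinery had UMIs in EC and none in GOBLET. In WT GOBLET, Snap25, Stx1a and Cplx1, which encode SNAREs and a SNARE clamp of synapses, had 0 UMIs, as did Cadps and Syt13; in EC they had 373, 95, 58, 267 and 280 UMIs. Vamp8, which encodes a SNARE of mucin and zymogen granules, was higher in GOBLET (256 ± 34 CPM) than in EC (127 ± 5; -2.17 ± 0.14 on the log2 scale for EC). Of 19 SNAREs and regulators tested, 5 were higher and 6 lower in EC than in GOBLET, a share near the 51.1% of all genes called there and a split that became 13 and 1 with UMI totals alone, and 6 calls held under every scaling. From EEC-PRE to EC 11 rose and 1 fell, 11 of them under every scaling, where 29.5% of all genes were called, 16% higher and 13.5% lower. Of 17 listed synaptotagmin and CAPS genes, 8 had enough UMIs to be tested. Of these, 7 rose from EEC-PRE to EC and 1 fell (Syt13, -0.42 ± 0.16, edgeR adjusted p = 0.041, and 0.18 with UMI totals alone). Genes could enter the fit through any type where they were high, EC among them. The SNARE and synaptotagmin counts from EEC-PRE to EC are therefore no results about these lists. Cadps, which encodes a priming factor of dense-core granules, rose from 5.39 ± 0.01 to 124 ± 14 CPM (4.36 ± 0.37). Cadps and Syt13 are also read in NON-EC, at 202 ± 17 and 136 ± 19 CPM, where Snap25 (56.3 ± 4.6 CPM) and Cplx1 (7.20 ± 2.15 CPM) were below EC by 1.71 ± 0.19 and 2.02 ± 0.54. From GOBLET-PRE to GOBLET, 4 SNAREs and regulators were higher and 2 lower (2 and 5 with UMI totals alone), and 3 effectors were higher and 1 lower (2 and 4), where 24.4% of all genes were called. Nsf and Vamp7 fell by 0.75 ± 0.24 and 0.58 ± 0.20 on the log2 scale. Vamp8, Stxbp2, Sytl2 and Unc13b rose by 1.05 ± 0.12, 0.96 ± 0.17, 0.92 ± 0.11 and 0.87 ± 0.16, and Stxbp2 and Unc13b were no longer called with UMI totals alone (0.056 and 0.11). Syt7, a calcium sensor, had 37.3 ± 4.7 CPM in GOBLET and 1.45 ± 0.44 in TUFT.

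**Figure D5:**
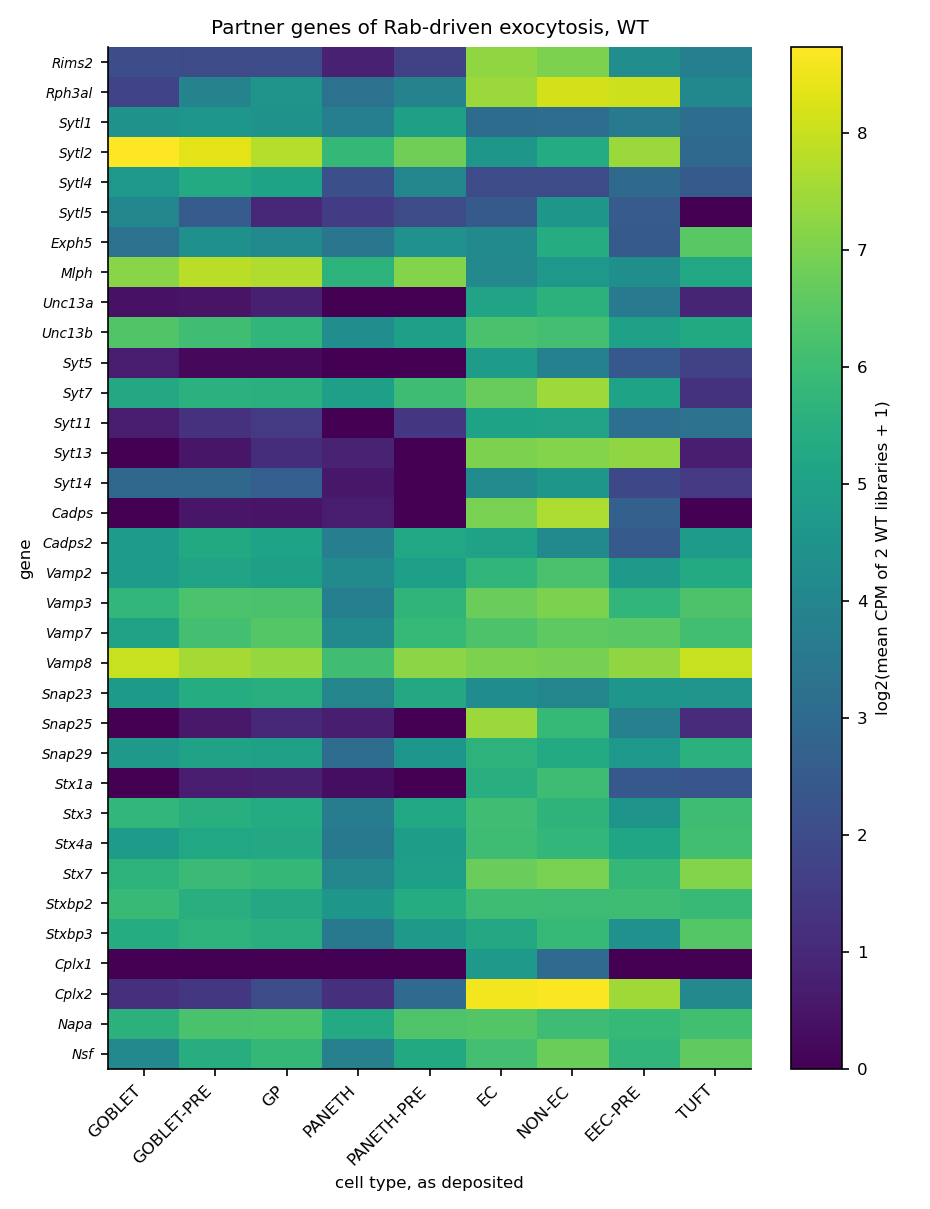
Mean WT level of 34 effector, synaptotagmin, CAPS and SNARE genes (rows) in 9 cell types (columns), coloured by log2(CPM + 1). Sytl2 and Mlph are bright in the goblet lineage, Rims2, Rph3al, Snap25, Cplx2 and Cadps in EC and NON-EC, and Cplx1 in EC.

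Of 26 Rabs of other membrane traffic tested, 2 were higher and 10 lower in EC than in GOBLET (median -0.27), a share near the 51.1% of all genes called, which became 17 and 2 with UMI totals alone, and 4 kept sign and call in every scaling. Rab11a, a Rab of recycling endosomes, was one: 159 ± 5 CPM in GOBLET, 101 ± 8 in EC (-1.80 ± 0.15) and 23.4 ± 0.4 in PANETH (-2.04 ± 0.19). Rab15 was higher in NON-EC (233 ± 30 CPM) than in EC (75.7 ± 10.3; 1.49 ± 0.16). Of 14 genes for Rab exchange factors, GAPs and carriers, 4 were higher and 4 lower in EC than in GOBLET (9 and 0 with UMI totals alone). That share is near the 51.1% of all genes called there. Madd, which encodes an exchange factor for Rab3 and Rab27, was 53.6 ± 5.8 and 14.4 ± 2.3 CPM (0.79 ± 0.28). Of 12 transcription factors of secretory cells, 4 were higher and 7 lower in EC than in GOBLET (5 and 5 with UMI totals alone). Of all genes 29.6% were called higher and 21.6% lower there. Atoh1 and Spdef were higher in GOBLET (174 ± 4 and 110 ± 15 CPM) than in EC (8.66 ± 4.69 and 13.6 ± 1.1), and Bhlha15, whose product controls exocrine granule genes, was higher in PANETH (57.4 ± 10.3 CPM) than in GOBLET (5.03 ± 1.89; 4.15 ± 0.30). Between genotypes no gene of the effector, synaptotagmin, SNARE, exchange factor, other Rab or transcription factor lists was called by edgeR in any of the 3 lineages.

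Genes with the most alike WT patterns over the 12 types, by Pearson r of log2(CPM + 1), included Cplx1 (0.988), Acvrl1 (0.988) and Trpm2 (0.988) for Rab3c; Hid1 (0.973), Atg13 (0.935) and Sec62 (0.915) for Rab3d; Cmtm8 (0.975), Sel1l3 (0.964) and Slc2a10 (0.949) for Rab27b; and Tspan1 (0.94) and Xbp1 (0.927) for Rab27a. In APC-KO replicate 2, which had no part in choosing them, the same pairs had r of 0.966, 0.923 and 0.749; 0.952, 0.697 and 0.912; 0.904, 0.966 and 0.837; and 0.924 and 0.711. For Rab3b, chosen from 65 WT UMIs, Fxyd6, Sned1 and C1qtnf4 led at 0.965, 0.954 and 0.953 in WT and had 0.569, 0.336 and 0.351 in APC-KO replicate 2. Rab3b and Rab3c, which followed each other in WT (r = 0.923), had r = 0.387 there. For Rab3a the leaders were Nsd3, Ppm1n and Itm2c (0.959, 0.952 and 0.952 in WT), with 0.358, 0.36 and 0.537 in APC-KO replicate 2, and for Rab26, from 59 UMIs, Cdc42bpa, Smox and Fam177a (0.88, 0.875 and 0.859) with 0.0474, -0.347 and 0.253. Points of 1 library share its depth.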

How the data were processed

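Single-cell libraries (10x Genomics 3' v3.1) of TOM+ crypt cells were processed with Cell Ranger 3.0.2 and STAR on build mm10, per the submitters' processing notes. The deposited matrices hold UMI counts per gene and barcode, and the authors' tables give counts of UMIs and genes, the mitochondrial percent, and other values (the library and 1 of 12 type names) for each of 15234 kept cells. How cells were filtered and named was not given in the sources used here, nor was doublet removal; no caller was run. From the deposited counts, UMIs were summed by library and type. edgeR 4.0.16 (R 4.3.3; TMM factors, filterByExpr, quasi-likelihood test, Benjamini-Hochberg adjustment over all genes at 0.05) was fitted to 4 sums per lineage for genotypes. For types it was fitted to 39 sums with at least 20 cells, with library, type and type by genotype terms and 13 residual degrees of freedom. CPM were computed over the UMIs of all genes in a sum. Intervals are 95% exact (Poisson, binomial or Clopper-Pearson) and cover counting error only, as do limits for 0 counts, with a floor of 3 counts.

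The members and lists were chosen with earlier results of these data known. All 8 members are named; of each list and comparison, the 3 genes with the largest called rise and fall at 20 CPM or more could be named. Genes like a member were taken among those at 20 CPM or more in a type, for members with at least 50 WT UMIs. Alternatives were DESeq2 1.42.0 size factors and its Wald test, no filter beyond 1 UMI, cells thinned to 2000 UMIs, free RNA (barcodes of 1 to 50 UMIs) subtracted at 5%, WT sums alone, each library left out, a replicate block and, added after the data were seen, UMI totals alone. The fits were tested on simulated data: 84.5% to 97.5% of genes changed by 2 on the log2 scale were called, all in the right direction. The changed genes were drawn above a floor of UMIs, and all genes shared the same spread. Some genes that these rules name are not reported here.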

Additional observations from a re-analysis of the deposited data

Results flagged for a closer look

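Rab27b moved in opposite directions between genotypes in 2 sums, in every library. In the Paneth lineage the mean of the APC-KO libraries was 16.0 CPM above that of WT, and in GOBLET-PRE the difference was -88.6 CPM. Within the Paneth lineage, PANETH overlapped between genotypes, and PANETH-PRE was lower in both APC-KO libraries (162 and 190 CPM in WT, 140 and 127 CPM in APC-KO). PANETH-PRE made up 122 of 228 and 98 of 298 cells of the lineage in WT and 11 of 27 and 602 of 876 in APC-KO. Rab3d also moved in opposite directions: in GOBLET the APC-KO mean was 26.8 CPM higher and in EC the difference was -38.5 CPM. TMM factors averaged 0.613 in WT and 0.764 in APC-KO for GOBLET. Dividing the mean Rab3d CPM by these factors leaves the genotypes nearly equal in GOBLET. These differences between types were not tested, and the directions are those of CPM; with TMM factors the Rab27b change in the Paneth lineage was -0.33 on the log2 scale.

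Rab3b was also higher in the barcodes of 1 to 50 UMIs, outside the authors' cells, in both APC-KO libraries (mean 5.92 CPM, from 5 and 12 UMIs) than in both WT libraries (2 and 0 UMIs).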

How the results depend on the processing

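Of 35 calls of members in 9 comparisons of WT types, 17 kept direction and call in every alternative, among them all those of Rab3c and all those of Rab27b but GOBLET against GOBLET-PRE. Among these calls and the genotype changes recomputed in the same way, the 8 reversals were Rab3d with UMI totals alone in EC against GOBLET (0.76), EC against PANETH (0.82), NON-EC against GOBLET (0.66), PANETH against GOBLET (-0.061), TUFT against GOBLET (0.22) and the Paneth lineage (0.019), Rab27b there (0.29), and Rab27a in the Paneth lineage with thinned cells (-0.12). Differences that were not called with TMM factors also turned with UMI totals alone, among them Rab3d in PANETH against PANETH-PRE (-1.11), Rab27a in EC against PANETH (1.65), Rab37 in EC against GOBLET (0.23) and Rab3a in the Paneth lineage (0.14). With UMI totals alone the number of members called became 5 for EC against EEC-PRE, 7 for EC against PANETH, 7 for NON-EC against GOBLET, 4 for PANETH against PANETH-PRE and 2 for TUFT against GOBLET; thinning gave 1 for NON-EC against EC and 2 for TUFT against GOBLET, and DESeq2's Wald test 1 for NON-EC against EC. Leaving out 1 library, members called ranged from 2 to 5 for EC against EEC-PRE, 3 to 5 for EC against GOBLET, 3 to 4 for EC against PANETH and NON-EC against GOBLET, 0 to 3 for GOBLET against GOBLET-PRE, 1 to 2 for NON-EC against EC, 2 to 4 for PANETH against GOBLET, 2 to 6 for TUFT against EC, 2 to 4 for TUFT against GOBLET and 0 to 1 for genotype in the endocrine lineage; with 1 WT library left, its spread is assumed to be like that of the others. The Rab3b ratio in GOBLET ranged from 19.1 to 81.6, the lowest being a lower bound with WT at the floor, and thinned cells gave at least 24.1-fold.

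Genes called between genotypes depended on the setting more than the members did: 2 in the goblet lineage, but 36 with DESeq2, 324 with no filter, 1 thinned, 0 with free RNA subtracted and 7 to 56 without 1 library; 57 in the Paneth lineage, but 35, 477, 121, 124 and 0 to 461, and 572 with UMI totals alone; 0 in the endocrine lineage, but 20, 309, 12, 0 and 5 to 934, and 4 with UMI totals alone. Between types, UMI totals alone moved the genes called from 4596 to 9840 for EC against PANETH, 2915 to 5518 for GOBLET against GOBLET-PRE and 670 to 6376 for PANETH against PANETH-PRE. Thinning gave 2338 for EC against EEC-PRE (3520), 1890 for EC against PANETH, 1705 for GOBLET against GOBLET-PRE, 783 for NON-EC against EC (1178, and 706 with DESeq2), 1828 for PANETH against GOBLET (4140) and 270 for PANETH against PANETH-PRE, and leaving out a library 65 to 6195 over the 10 comparisons. Replicate numbers did not pair the libraries (correlation of same-numbered deviations -0.0174, -0.0051 and -0.0698). The replicate block called 27, 124 and 16 genes and 0 members. The cause of these shifts was not tested. Depth limits Rab26, Rab37 and WT Rab3b, with 59, 48 and 65 UMIs.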
